A study of Mus musculus with 7 samples.

Results

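Heat-shock factors and protein chaperones were followed in single mature mouse eggs (MII oocytes, at the arrest before fertilization), with and without deletion of Hira. The genes were chosen by symbol alone: every symbol that starts with Hsp or Dnaj, or with Hsf or Cct and a digit, which gave 101 genes of 37620 identifiers in the table. The oocytes labelled KO carried the genotype Hiraf/f, Zp3-Cre (KO1 to KO4, n = 4), and those labelled WT carried the floxed alleles without the Cre transgene, Hiraf/f (WT1, WT2 and WT4, n = 3). The Zp3 promoter drives Cre in growing oocytes, so deletion is placed in the germ cell during its growth, and both genotypes share the floxed alleles. Strain, age and animal are not given in the labels. Hira encodes a chaperone that deposits the histone variant H3.3, and its transcript was at 0.0784 ± 0.0362 FPKM in KO and 0.317 ± 0.028 FPKM in WT oocytes (SD over oocytes), without overlap. These levels are low in both genotypes and below the filter used further on. They rest on 12, 15, 5 and 17 reads in KO1 to KO4 and on 42, 55 and 35 reads in WT1, WT2 and WT4.

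Chaperones help other proteins to fold, keep them soluble and hand them to degradation. HSP70 proteins bind exposed hydrophobic stretches in a cycle of ATP hydrolysis, J proteins (the Dnaj genes) deliver the substrate and trigger the hydrolysis, HSP110 proteins exchange the nucleotide, HSP90 proteins mature kinases and receptors, and the ring-shaped chaperonins (CCT in the cytosol, HSP60 with its lid HSP10 in mitochondria) enclose the substrate. Heat-shock factors are the transcription factors that bind the heat-shock element, inverted repeats of GAA, in the promoters of many of these genes. A mature oocyte is transcriptionally silent and lives on stored transcripts, and in the mouse maternal HSF1 is required for normal oocyte maturation and early development.

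The promoter stretches below come from RefSeq (GRCm38.p6) and are shown because the heat-shock element is what connects the factors to the chaperone genes. Promoter entries were held for 72 of the 101 genes, among them 44 of the 56 that pass the filter used further on. Hsf1, Hsp90aa1 and Hsp90ab1 were among those without an entry, so they were not searched. The window ran from 250 bases before to 50 after each annotated start, and both strands were searched. The element of 3 units, GAA and its complement TTC in turn with 2 bases between neighbours, was in the windows of 4 of the 72 genes (5.56%), Hspd1, Hspe1, Dnajb6 and Hsph1, and in those of 0.662% of all 27025 genes. The shorter form of 2 units, GAANNTTC or TTCNNGAA, which lies inside every 3-unit match, was in 21 of the 72 (29.2%) and in 17% of all genes; genes can have several windows, and 15.1% of the 32851 windows held it. Capitals mark the matches in the lines that follow, which read 5′ to 3′ along the gene.
Hspe1 and Hspd1, the 215 bases between their divergent starts, chr1:55087933-55088147, plus strand: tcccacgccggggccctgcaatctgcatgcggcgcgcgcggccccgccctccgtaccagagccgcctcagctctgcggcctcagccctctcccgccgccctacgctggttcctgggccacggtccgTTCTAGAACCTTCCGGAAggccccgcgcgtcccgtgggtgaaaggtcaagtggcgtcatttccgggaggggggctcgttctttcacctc
Dnajb6, the 120 bases before its start, chr5:29735778-29735897, plus strand: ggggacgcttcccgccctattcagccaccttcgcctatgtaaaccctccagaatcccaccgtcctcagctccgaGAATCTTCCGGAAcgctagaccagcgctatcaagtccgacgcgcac
Hsph1, 30 bases around the match, chr5:149636279-149636308, minus strand: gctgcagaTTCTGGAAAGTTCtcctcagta
Dnaja1, chr4:40722308-40722407, plus strand: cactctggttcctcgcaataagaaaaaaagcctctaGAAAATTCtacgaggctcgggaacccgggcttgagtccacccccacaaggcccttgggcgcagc
Hspa1b, chr17:34959289-34959388, minus strand: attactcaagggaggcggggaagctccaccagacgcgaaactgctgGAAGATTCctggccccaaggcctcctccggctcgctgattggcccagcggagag
The matches of Hspe1, Dnajb6, Dnaja1 and Hspa1b lay before the start, at -89 to -72, -46 to -34, -124 to -117 and -104 to -97, and that of Hsph1 lay after the start it is counted from, at 16 to 28. The windows of Hspa1a and Hspa1b, neighbouring copies of the stress-inducible HSP70 gene, had the same base at 296 of 300 positions.

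A second motif is shown for the chaperones of the endoplasmic reticulum (ER), the ER stress element, CCAAT and CCACG with 9 bases between them, sought on both strands. It was in the windows of 3 of the 72 genes, Hspa5, Hsp90b1 and Dnajc3 (4.17%), and in those of 0.137% of all genes.
Hspa5, chr2:34772020-34772049, plus strand: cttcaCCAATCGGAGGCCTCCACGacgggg
Hsp90b1, chr10:86705632-86705661, minus strand: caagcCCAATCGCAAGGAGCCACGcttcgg
Dnajc3, chr14:118937822-118937851, plus strand: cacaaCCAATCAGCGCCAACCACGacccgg
A match is a string of letters in a window and not a bound site.

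Levels are in FPKM, fragments scaled to gene length and library size, as deposited, and are relative to the other RNA of the same oocyte. Each library is 1 oocyte and no animal is named, so each genotype counts as 1 sample and no test between genotypes is reported; an SD here measures how single oocytes vary. Reads in genes, worked out from the steps between low values, ranged from 15340782 to 25940519 per oocyte. Differences are of mean log2(FPKM + 1), KO minus WT, over the 8033 genes that reached an FPKM of 1 in 3 or more oocytes, and their median over those genes was 0.18 as deposited and -0.0065 after median-ratio scaling. All 12 oocyte markers on the marker list (Zp3, Gdf9, Dppa3 and others) passed that filter, with a summed level of 11556 to 14193 FPKM in KO and 19508 to 20149 FPKM in WT oocytes. Of 20 cumulus and granulosa markers, 9 were at 0 in every library, among them Foxl2, Amh, Lhcgr and Gja1, and Kitl and Fshr passed the filter. Fshr was at 0, 2.99, 4.34 and 4.51 FPKM in KO1 to KO4 and at 0 in the WT oocytes. The summed level of the 20 was 7.01 to 9.80 FPKM in KO and 3.39 to 4.18 FPKM in WT oocytes, and its part in the results below was not tested.

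Among the 101 genes, 56 passed the filter, 24 had some value below it and 21 were at 0 in all 7 oocytes. Their shares of higher and lower genes were near those of all genes compared, so the set as a whole gives no result of its own. The median difference was 0.19, beside 0.18 for all genes compared. Over 1.5-fold higher in KO oocytes were 14 of the 56 (25%), against 22.6% of all genes compared, and over 1.5-fold lower were 5 (8.93%), against 7.92%. Over 2-fold higher were 5 members (8.93%), against 7.95% of all genes, and over 2-fold lower 2 (3.57%), against 2.34%. Median-ratio scaling gave 7 members over 1.5-fold higher, against 14.8% of all genes, and 7 lower, against 14%. Quantile normalization gave 8 higher, against 14.4%, and 6 lower, against 12.7%. Every KO oocyte lay above every WT oocyte for 9 members, against 18.9% of all genes, and below for 6, against 8.94%; after median-ratio scaling these were 7, against 12.5%, and 12, against 14.9%. Together the 101 genes took 1.03% ± 0.0486 of the reads in genes in KO oocytes and 0.971% ± 0.0289 in WT oocytes, with overlap. The even total holds members that stood several-fold apart in opposite directions, and the families are taken in turn. Just past the 1.5-fold limit were Dnajc7 (-0.59) and Dnajc4 (0.60), and just inside it Dnajc5b (0.57) and Hspa2 (-0.56).

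**Figure D1:**
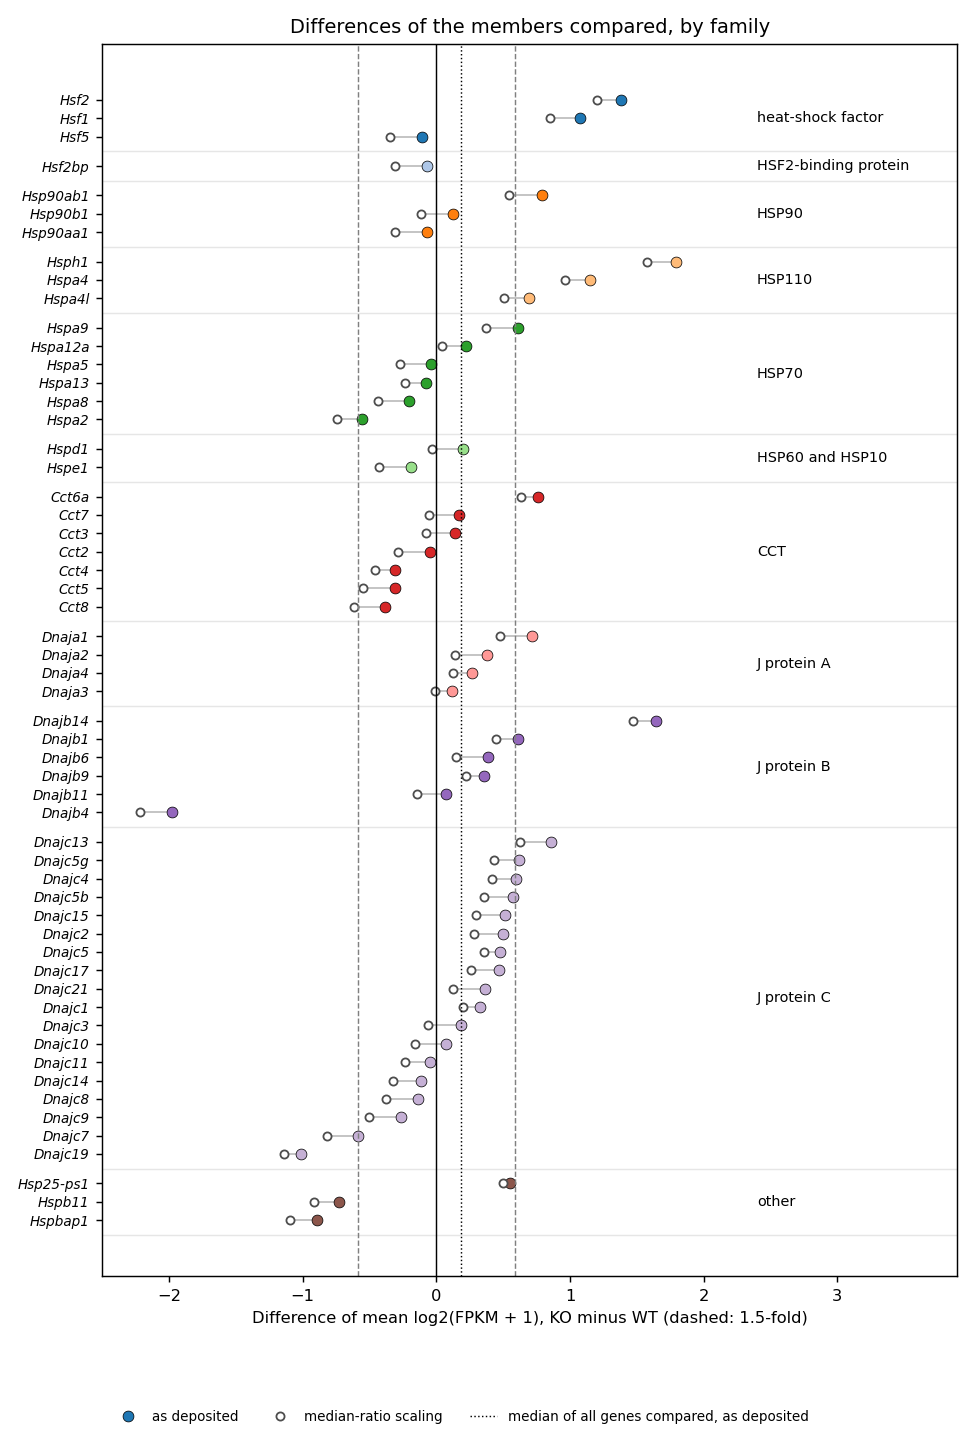
KO minus WT difference in mean log2(FPKM + 1) for each of the 56 members above the filter, by family. Filled points are the deposited FPKM, open points the same after median-ratio scaling, dashed lines mark 1.5-fold and the dotted line the median of all genes compared (0.18). Hsf1, Hsf2, the HSP110 genes and Dnajb14 stand to the right, Dnajb4 alone stands far to the left, and the CCT subunits lie on both sides of 0.

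The heat-shock factors Hsf1 and Hsf2 were both higher in KO oocytes, while Hsf5, the most abundant of the family, was not. Hsf1, the main activator of the heat-shock response, was at 19.2, 21.5, 11.7 and 14.8 FPKM in KO1 to KO4 and at 7.52, 4.57 and 10.9 FPKM in WT1, WT2 and WT4. No WT oocyte reached a KO oocyte, though WT4 was close to KO3, and after median-ratio scaling these neighbours overlapped. The means were 16.8 ± 4.39 FPKM in KO and 7.67 ± 3.17 FPKM in WT oocytes, 2.19-fold apart, with a log2 difference of 1.07 (0.85 with median-ratio scaling and 0.88 with quantile normalization). Reads came to 4891 in KO and 1383 in WT oocytes, a rate 2.21 times as high in KO (95% interval 2.08 to 2.35, counting error only).

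Hsf2, a factor that acts with HSF1 and is active in germ cells and embryos, was at 4.58, 6.88, 8.87 and 7.71 FPKM in KO1 to KO4 and at 2.83, 1.14 and 2.31 FPKM in the WT oocytes. The groups did not overlap, before or after median-ratio scaling, and the means of 7.01 ± 1.81 FPKM in KO and 2.09 ± 0.867 FPKM in WT were 3.35-fold apart (log2 difference 1.38). Hsf5, which in the mouse is needed for spermatogenesis, stood at 53.5 ± 9.87 FPKM in KO and 57.3 ± 8.90 FPKM in WT oocytes, with overlap. In WT oocytes Hsf5 was thus well above Hsf1, and Hsf1 above Hsf2 in each of the 3. Within each oocyte the ratio of Hsf1 to Hsf5 was 0.249 to 0.343 in KO and 0.068 to 0.218 in WT, a measure that a single scale factor per library does not alter. Hsf3 and Hsf4 were at 0 throughout. Hsf2bp, which the symbol rule also takes in and which encodes a partner of BRCA2 in meiotic recombination, was at 32.5 ± 3.11 FPKM in KO and 34.4 ± 5.36 FPKM in WT oocytes.

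**Figure D2:**
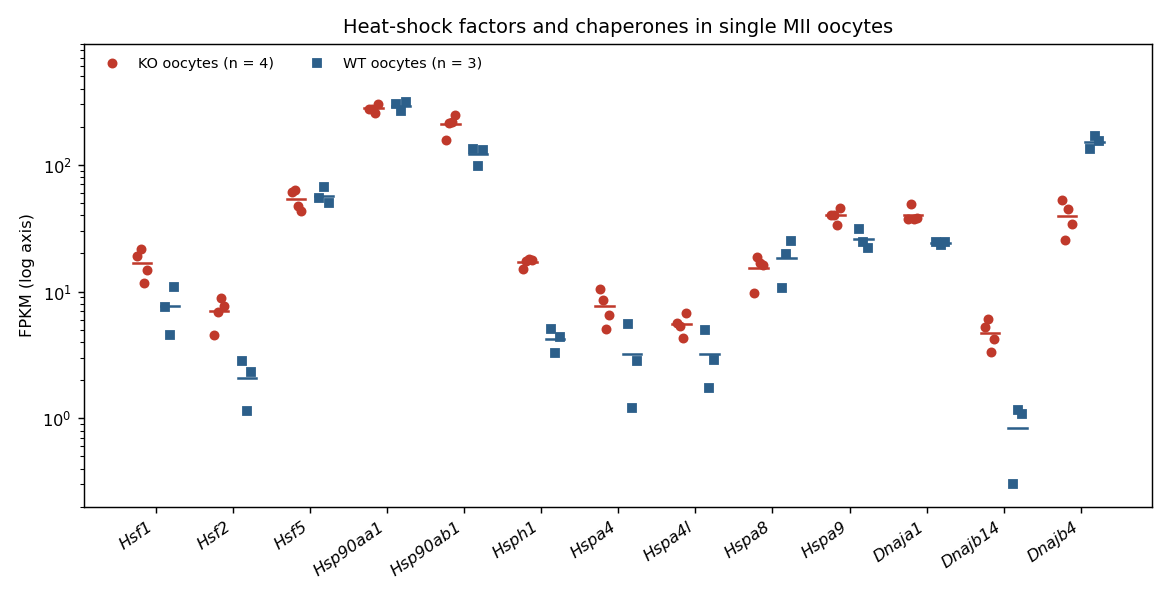
FPKM in each oocyte on a log axis for the heat-shock factors and for the chaperones named most in the text, KO oocytes (circles, n = 4) left of WT oocytes (squares, n = 3), with a line at each mean. Hsf2, Hsp90ab1, Hsph1, Hspa9, Dnaja1 and Dnajb14 lie higher in every KO oocyte, Dnajb4 lower, and Hsp90aa1 (279 ± 19.5 in KO and 293 ± 24.4 in WT) overlaps.

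All 3 HSP110 genes, the nucleotide exchange factors of HSP70, were over 1.5-fold higher in KO oocytes, a call made for 22.6% of all genes compared; for Hspa4l it was lost under both other scalings. Hsph1, which encodes HSP105, was at 15.0, 17.4, 18.0 and 17.7 FPKM in KO1 to KO4 and at 5.08, 3.28 and 4.36 FPKM in WT1, WT2 and WT4. The KO oocytes lay close together, and the lowest of them was over 2-fold above the highest WT oocyte. The means of 17.0 ± 1.39 FPKM in KO and 4.24 ± 0.908 FPKM in WT were 4.02-fold apart (log2 difference 1.79, and 1.58 under either other scaling), with 16778 reads in KO beside 2545 in WT. Hspa4 was at 10.5, 8.54, 5.05 and 6.57 FPKM in the KO oocytes and at 5.53, 1.20 and 2.83 FPKM in the WT oocytes, so that KO3 lay below WT1 (log2 difference 1.15, and 0.75 without WT2). Hspa4l, the testis-rich relative of Hspa4, was at 5.52 ± 1.01 FPKM in KO and 3.19 ± 1.63 FPKM in WT oocytes, with overlap (0.70, but 0.51 with median-ratio scaling and 0.42 without WT2). The summed level of the 3 genes was 27.4 to 31.3 FPKM in KO and 6.21 to 15.6 FPKM in WT oocytes, without overlap.

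The HSP90 genes differed from one another. Hsp90aa1, the stress-inducible cytosolic form, was the most abundant of all 101 genes, rank 126 of the 8033 by mean level. It stood at 275, 278, 258 and 305 FPKM in KO1 to KO4 and at 301, 265 and 312 FPKM in the WT oocytes, which overlapped as deposited. The log2 difference was -0.07 as deposited, -0.31 with median-ratio scaling and 0.14 with quantile normalization. After median-ratio scaling every KO oocyte lay below every WT oocyte, as for 14.9% of all genes compared. Hsp90ab1, the constitutive cytosolic form, was at 157, 216, 218 and 249.8 FPKM in KO1 to KO4 and at 134, 98.2 and 130.2 FPKM in the WT oocytes. Each KO oocyte was above each WT oocyte, also after median-ratio scaling, with means of 210.2 ± 38.7 FPKM in KO and 121 ± 19.7 FPKM in WT (1.74-fold, log2 difference 0.79, and 0.54 with median-ratio scaling). Hsp90b1, the ER form, was at 43.9 ± 10.3 FPKM in KO and 40.6 ± 11.9 FPKM in WT oocytes.

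The balance between the cytosolic HSP90 forms could be read within each oocyte, where a scale factor per library drops out. Hsp90aa1 over Hsp90ab1 was 1.75, 1.29, 1.18 and 1.22 in KO1 to KO4 and 2.25, 2.70 and 2.39 in WT1, WT2 and WT4. The alpha form was the higher in all 7 oocytes, and the ratio was lower in every KO than in every WT oocyte. In the reference, 47.5% of the 50-base windows of Hsp90aa1 also occur in transcripts of other genes, and 3.44% of those of Hsp90ab1, so reads of Hsp90aa1 cannot be assigned with certainty.

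Among the HSP70 genes, the mitochondrial Hspa9 was higher in every KO oocyte and the germ-cell Hspa2 lower. The other 4 above the filter overlapped. By mean level Hspa9 was the most abundant of the HSP70 genes in KO oocytes (39.9 FPKM). In WT oocytes Hspa5 (28.4 FPKM) stood above Hspa9 (25.9 FPKM). Hspa9, mortalin, which pulls proteins into mitochondria, was at 40.2, 40.4, 33.3 and 45.8 FPKM in KO1 to KO4 and at 31.2, 24.4 and 22.1 FPKM in the WT oocytes. The groups did not overlap, and the log2 difference of 0.61 was 0.37 with median-ratio scaling, 0.54 without KO4 and 0.51 without WT4, which are within 1.5-fold. Hspa2, the testis-rich member that acts in meiosis, was at 1.42, 3.12, 2.89 and 3.04 FPKM in the KO oocytes and at 5.32, 4.00 and 3.49 FPKM in the WT oocytes, again without overlap (-0.56).

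Hspa5, the ER member BiP, averaged 28.4 ± 7.52 FPKM in KO and 28.4 ± 1.64 FPKM in WT oocytes. Hspa8, the constitutive cytosolic member, was at 15.4 ± 3.89 FPKM in KO and 18.5 ± 7.40 FPKM in WT oocytes, and 39.4% of its windows are shared with other genes. Hspa12a (2.84 ± 0.811 in KO and 2.24 ± 0.0548 FPKM in WT), a distant relative, and Hspa13 (1.51 ± 0.589 and 1.69 ± 0.945 FPKM), of the ER, overlapped too. The ratio of Hsph1 to Hspa8 was 0.928 to 1.53 in KO and 0.167 to 0.480 in WT oocytes. The stress-inducible genes were almost silent: Hspa1a was listed above 0 in KO3 alone, at 0.0219 FPKM, and Hspa1b in KO1, KO2 and WT4, at 0.0103, 0.00839 and 0.0439 FPKM. Both carry a heat-shock element of 2 units at the same place, in the stretch printed for Hspa1b, and 66.3% and 62.3% of their own windows are shared, mostly with each other.

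No small heat-shock protein gene passed the filter. Hspb1 (HSP25), which binds unfolding proteins without ATP, had 11, 17, 6 and 1 reads in KO1 to KO4 and 52, 11 and 21 reads in WT1, WT2 and WT4. Since 50.1% of its windows are shared, mostly with the pseudogene Hsp25-ps1, its reads cannot be assigned with certainty. Hspb6 gave 162 reads over the KO and 30 over the WT oocytes, 28 of them in WT1. Hspb2, Hspb3, Hspb7 and Hspb9 were at 0, and Hspb8 was above 0 in KO1 only. Hspb11, which despite its symbol encodes a subunit of the intraflagellar transport complex, was at 2.30, 3.82, 1.96 and 2.68 FPKM in the KO oocytes and at 4.99, 5.01 and 5.02 FPKM in the WT oocytes, lower in every KO oocyte (log2 difference -0.73). Hspbap1, a gene for an HSPB1-associated protein, was at 4.93 ± 2.04 FPKM in KO and 9.76 ± 2.81 FPKM in WT oocytes (-0.89). KO1 lay above WT2 as deposited, but not after median-ratio scaling. Hsp25-ps1, a pseudogene that shares 87.6% of its windows, mostly with Hspb1, just passed the filter at 0.990 ± 0.702 FPKM in KO and 0.358 ± 0.620 FPKM in WT oocytes.

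The mitochondrial chaperonin genes Hspd1 (HSP60) and Hspe1 (HSP10) start from the common stretch printed above, with the same heat-shock element. Hspd1 was at 19.5 ± 2.31 FPKM in KO and 17.0 ± 3.06 FPKM in WT oocytes (0.20), and Hspe1 at 54.2 ± 6.10 FPKM in KO and 62.0 ± 10.1 FPKM in WT oocytes (-0.19), each with overlap as deposited. After median-ratio scaling Hspe1 was lower in every KO oocyte. Hspe1 was above Hspd1 in all 7 oocytes, by 2.57 to 3.02 times in KO and 3.29 to 3.98 times in WT, and these ratios did not overlap. Shared sequence made up 42.1% of the windows of Hspd1 and 22.8% of those of Hspe1, and the annotated exons of the pair overlap.

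**Figure D3:**
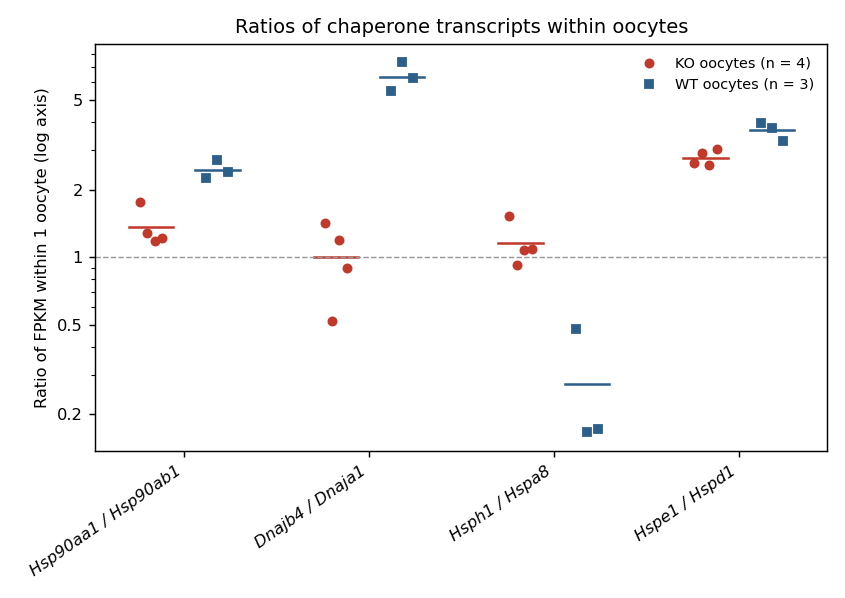
Ratio of FPKM between chaperone genes within the same oocyte on a log axis, KO oocytes (circles, n = 4) left of WT oocytes (squares, n = 3), with a line at each mean and a dashed line at equal levels. All 4 ratios are apart between genotypes, most of all Dnajb4 over Dnaja1 (0.523 to 1.42 in KO and 5.48 to 7.36 in WT); these are 4 of 11 pairs computed, chosen after the levels had been seen.

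Subunits of CCT, the ring of 8 kinds of subunit that folds actin and tubulin, were mostly level between genotypes but far apart from each other. Cct2 was highest at 65.2 ± 5.77 FPKM in KO and 67.5 ± 8.76 FPKM in WT oocytes, followed by Cct8 and Cct5, then by Cct7 (13.9 ± 3.51 and 12.6 ± 5.47) and Cct3 (8.49 ± 0.883 and 7.61 ± 0.771). Cct4 was at 1.75 ± 0.289 FPKM in KO and 2.44 ± 0.707 FPKM in WT oocytes, so that in FPKM Cct2 exceeded Cct4 by 26.8 to 44.9 times in KO and 24.3 to 38.3 times in WT. Neither of these shares over 1% of its windows with other genes. Reads of Cct2 and Cct4 came to 12775 and 1142 in KO and to 8317 and 956 in WT oocytes. The ratio in FPKM thus also rests on the gene lengths used, which are not given. Cct8 was at 36.5, 36.3, 40.9 and 35.3 FPKM in KO1 to KO4 and at 41.4, 51.5 and 54.4 FPKM in the WT oocytes, lower in every KO oocyte, though KO3 was close to WT1 (log2 difference -0.38, and -0.62 with median-ratio scaling). Cct5 was at 23.2, 40.7, 36.2 and 37.0 FPKM in KO and at 38.3, 40.4 and 47.0 FPKM in WT oocytes (-0.31), where KO2 exceeded WT1 and WT2. After median-ratio scaling Cct5 too was lower in every KO oocyte. Cct6a was at 0.356, 1.87, 2.04 and 2.42 FPKM in KO and at 0, 0.495 and 1.20 FPKM in WT oocytes, with overlap (0.76). That difference was 0.47 without WT1, 0.56 with quantile normalization, 0.26 with a pseudocount of 5 and 1.80 with one of 0.1. Its testis counterpart Cct6b was at 0 apart from WT4. The eighth subunit gene, Tcp1, falls outside the symbol rule and stood at 4.42 ± 0.410 FPKM in KO and 6.20 ± 0.463 FPKM in WT oocytes, lower in every KO oocyte.

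**Figure D4:**
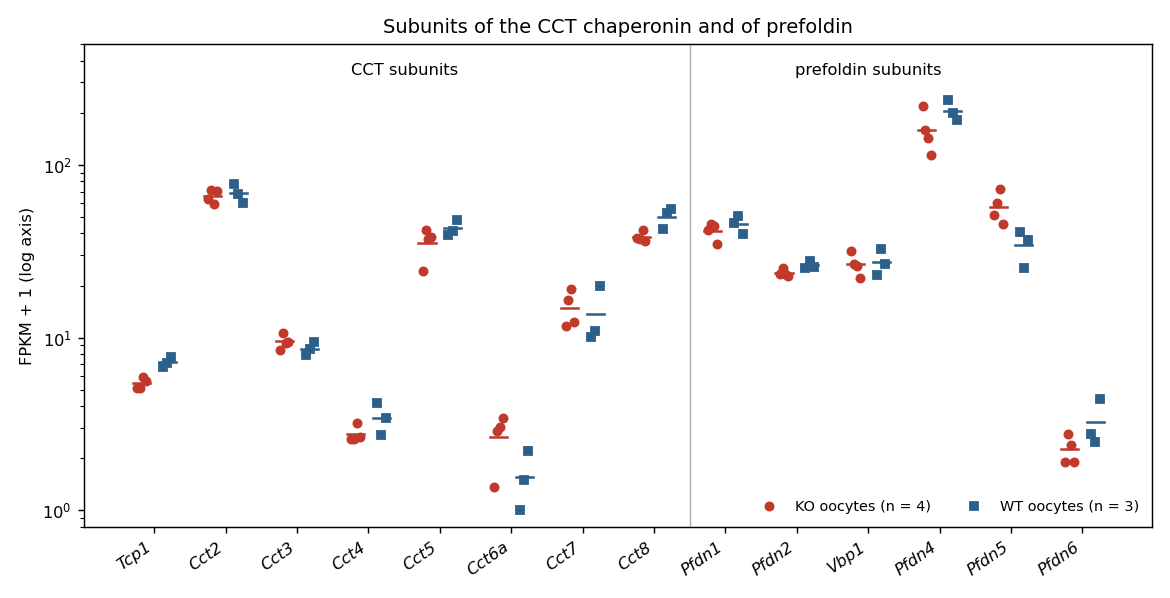
FPKM + 1 of the CCT subunit genes and of prefoldin, the complex that passes substrates to CCT, on a log axis, KO oocytes (circles, n = 4) left of WT oocytes (squares, n = 3), with a line at each mean. Levels between subunits span more than 10-fold in both genotypes, while genotypes are close for most. Pfdn5 lies higher in every KO oocyte (56.3 ± 11.9 in KO and 33.3 ± 8.11 FPKM in WT), and Cct8, Tcp1 and Pfdn2 lie lower in every KO oocyte.

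J proteins held the widest contrast of the set. Of 45 J protein genes, 28 passed the filter, with 6 over 1.5-fold higher and 3 lower in KO oocytes and a median difference of 0.36 (0.14 with median-ratio scaling). These shares of 21.4% and 10.7% were near the 22.6% and 7.92% of all genes. Median-ratio scaling gave 2 higher and 3 lower, against 14.8% and 14% of all genes. Dnajb4, a cytosolic J protein of the HSP40 type, was at 52.7, 25.5, 44.6 and 34.2 FPKM in KO1 to KO4 and at 134, 170.0 and 154 FPKM in WT1, WT2 and WT4, where it was the most abundant J protein gene. No KO oocyte came within 2-fold of any WT oocyte. The means of 39.2 ± 11.9 FPKM in KO and 153 ± 17.8 FPKM in WT were 3.89-fold apart, and the log2 difference of -1.98 was -2.22 with median-ratio scaling and -1.96 with quantile normalization. None of its windows is shared with other transcripts, and its reads numbered 26983 in KO and 66537 in WT.

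Dnajb14, a J protein anchored in the ER membrane with its J domain in the cytosol, was at 5.30, 6.07, 3.34 and 4.20 FPKM in KO1 to KO4 and at 0.301, 1.15 and 1.07 FPKM in WT1, WT2 and WT4. The lowest KO oocyte was well above the highest WT oocyte, and the means of 4.73 ± 1.21 FPKM in KO and 0.843 ± 0.471 FPKM in WT were 5.61-fold apart (log2 difference 1.65). Its reads numbered 5915 in KO and 687 in WT oocytes, a rate 5.38 times as high in KO (95% interval 4.97 to 5.83, counting error only).

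The cytosolic co-chaperones Dnaja1 and Dnajb6 were also higher in each KO oocyte than in each WT oocyte. Of their windows, 20.6% for Dnaja1 and 21.0% for Dnajb6 are shared with other genes. Dnaja1, the main partner of HSP70 in the cytosol, was at 37.1, 48.8, 37.5 and 38.2 FPKM in KO1 to KO4 and at 24.5, 23.1 and 24.6 FPKM in the WT oocytes (log2 difference 0.71, and 0.48 with median-ratio scaling); exons of Smu1 overlap it on the other strand. Dnajb6, which holds back protein aggregates, was at 51.8 ± 6.46 FPKM in KO and 39.3 ± 0.831 FPKM in WT oocytes, a smaller step of 0.38 that gave overlap after median-ratio scaling. Of the searched genes that held the 3-unit heat-shock element, Hsph1 therefore had a difference of 1.79, Dnajb6 of 0.38, Hspd1 of 0.20 and Hspe1 of -0.19. Dnajb4 over Dnaja1 was 1.42, 0.523, 1.19 and 0.895 in KO1 to KO4 and 5.48, 7.36 and 6.25 in the WT oocytes. Dnaja2 was at 60.0 ± 7.08 FPKM in KO and 46.8 ± 13.5 FPKM in WT oocytes, and Dnajb1, the inducible partner of HSP70, at 3.88 ± 1.78 and 2.38 ± 1.74 FPKM (0.61), both with overlap. The difference of Dnajb1 was 0.18 without WT2, 0.39 without KO2 and 0.99 without WT4.

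In the C class, whose members share little beyond the J domain, Dnajc13 was higher and Dnajc7 and Dnajc19 were lower in every KO oocyte. Dnajc13, which acts on endosomes, was at 22.0, 20.8, 17.2 and 19.5 FPKM in KO1 to KO4 and at 14.6, 9.02 and 8.71 FPKM in the WT oocytes (log2 difference 0.86). Dnajc7, which binds HSP70 and HSP90 together, was at 8.81, 13.4, 10.3 and 12 FPKM in the KO oocytes and at 15.7, 16.5 and 19.0 FPKM in the WT oocytes (-0.59, but -0.49 without KO1, -0.56 without KO3 and -0.51 without WT4). Dnajc19, a part of the import motor of the mitochondrial inner membrane, was at 0.872, 0.922, 0.409 and 0.470 FPKM in KO and at 2.71, 1.62 and 2.82 FPKM in WT oocytes, 3.57-fold lower in KO by the means. It had 299 reads over the KO and 683 over the WT oocytes. Since it reached the filter in WT oocytes alone, it could be counted only as lower.

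The abundant members of this class were level. Dnajc3, an ER co-chaperone, was at 69.7 ± 9.22 FPKM in KO and 61.0 ± 1.93 FPKM in WT oocytes. Dnajc8, of the spliceosome, was at 60.1 ± 5.28 FPKM in KO and 66.1 ± 2.10 FPKM in WT. Dnajc9, which in human cells binds histones H3 and H4, was at 55.5, 62.2, 64.5 and 51.6 FPKM in KO1 to KO4 and at 98.4, 65.4 and 53.9 FPKM in the WT oocytes, where WT1 alone stood apart (-0.27, and -0.028 without WT1). Dnajc21, of ribosome assembly, was at 37.9 ± 3.63 FPKM in KO and 29.7 ± 6.71 FPKM in WT oocytes. Past 1.5-fold but overlapping were Dnajc4 (5.06 ± 1.66 FPKM in KO and 3.24 ± 1.91 in WT) and Dnajc5g (3.04 ± 0.695 and 2.13 ± 2.41 FPKM, with WT2 above every KO oocyte). Without WT2 the difference of Dnajc4 was 0.13, against 0.60 with it. That of Dnajc5g, 0.62, was 0.24 without WT1, 0.41 without WT4, 0.53 without KO3 and 1.21 without WT2. The ER chaperone genes that carry the ER stress element stood close to 0 as deposited, with Hspa5 at -0.04 (-0.27 with median-ratio scaling), Hsp90b1 at 0.12 and Dnajc3 at 0.18.

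A further list of 62 symbols held co-chaperones and folding factors that the symbol rule leaves out. Of 61 found, 42 passed the filter, with 9 over 1.5-fold higher and 0 over 1.5-fold lower in KO oocytes, to be read against 22.6% and 7.92% of all genes. The median difference was 0.13, beside 0.18 for all genes. Median-ratio scaling gave 3 higher and 6 lower, against 14.8% and 14% of all genes. Quantile normalization gave 5 and 3, against 14.4% and 12.7%. Among the most abundant, Ptges3, the HSP90 co-chaperone p23, was at 283 ± 34.8 FPKM in KO and 330.5 ± 30.4 FPKM in WT. The ER lectin chaperone Canx was at 164 ± 20.2 and 214 ± 37.0 FPKM, and both genes overlapped. Sugt1, at 258 ± 33.7 and 182 ± 18.2 FPKM, was higher in every KO oocyte as deposited but not after median-ratio scaling. Its log2 difference was 0.50, with 0.26 after median-ratio scaling and 0.69, past 1.5-fold, after quantile normalization.

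Of 14 genes of ER folding and its stress response found from that list, 12 passed the filter, with a median difference of 0.16, below that of all genes. Over 1.5-fold higher were 4 and lower 0, against 22.6% and 7.92% of all genes compared. Median-ratio scaling gave 2 higher and 2 lower, against 14.8% and 14%. With 12 genes, these counts are too small to read as a result about the group. Ern1, which encodes IRE1, was at 75.5, 71.6, 52.5 and 72.9 FPKM in KO1 to KO4 and at 49.2, 29.3 and 27.7 FPKM in WT1, WT2 and WT4, without overlap (log2 difference 0.96, and 0.72 with median-ratio scaling). Eif2ak3, which encodes PERK, reached the filter in KO oocytes alone, so it could only differ in this direction, and was at 1.28 ± 0.607 FPKM in KO and 0.232 ± 0.132 FPKM in WT oocytes, and the factors downstream of it, Ddit3 (5.64 ± 1.11 and 3.41 ± 0.918 FPKM) and Atf4 (9.26 ± 4.01 and 5.32 ± 1.91 FPKM, with overlap), had log2 differences of 0.60 and 0.68, and 0.39 and 0.47 after median-ratio scaling, which are within 1.5-fold. The folding enzymes and lectins of the ER lay on both sides of 0, all with overlap. Pdia4 was at -0.51, Canx at -0.37, Pdia6 at -0.26 and Pdia3 at -0.16, while Calr was at 0.43 and P4hb at 0.12. Sdf2l1, also on the list, was at 0.046 with overlap. Xbp1, whose transcript IRE1 splices, did not pass the filter. Atf6, a further sensor of unfolded protein, was at 12.1 ± 1.18 FPKM in KO and 10.3 ± 0.761 FPKM in WT oocytes (0.21). The others past 1.5-fold were Cdc37l1 (43.3 ± 6.84 FPKM in KO and 22.6 ± 3.08 in WT) and Ahsa2 (2.36 ± 0.410 and 1.08 ± 0.400), which work with HSP90, Bag5 (2.03 ± 0.206 and 0.888 ± 0.419), which works with HSP70, Pfdn5 of prefoldin, and the mitochondrial protease gene Lonp1 (1.08 ± 0.174 and 0.361 ± 0.181), which also reached the filter in KO oocytes alone.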

How the data were processed

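RNA was measured in 7 libraries, each made per the labels' protocols from 1 oocyte with an ultra-low-input cDNA kit. The authors deposited linear FPKM by Ensembl gene. The build mm9 and the tools HTSeq, edgeR 3.1.10, Bowtie2, Bowtie 0.12.8, TopHat and TopHat2 2.0.2 are named in the submitters' processing notes, with no role for each; strand use in counting and gene models are not given in the sources used here. Symbols came from a GENCODE annotation on a later build (87.4% of identifiers named, 97.4% of those compared), so gene coordinates are not given. Members, lists and pairs were chosen with earlier results of these data known, and the 1.5-fold limit likewise.

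From the deposited FPKM, differences of mean log2(FPKM + 1) were taken with Python 3.11.15 and pandas 2.3.3, over genes that reached an FPKM of 1 in 3 or more oocytes. Median-ratio scaling and quantile normalization were alternatives, beside pseudocounts, filters and leaving out each oocyte. Whole reads were recovered as the smallest numbers, within 0.01, that fit each gene's FPKM steps across libraries; all 18300 genes with a value gave such numbers, and those seen in 1 library are not determined. Read recovery and differences were both tested on simulated data. Intervals are exact 95% intervals that cover counting error only, since amplified reads are not independent molecules. Shared sequence is the share of a gene's 50-base transcript windows found in transcripts of other genes. Any member could be named; always named were members above the filter outside the J proteins, J proteins over 1.5-fold apart, with a mean FPKM of at least 30 or without overlap, and, of the co-chaperone list, genes over 1.5-fold apart and the 3 most abundant. Tcp1, Pfdn2, Atf6, Xbp1, Calr, P4hb, Pdia3, Pdia4, Pdia6 and Sdf2l1 were named outside that rule, after their values were seen.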

Additional observations from a re-analysis of the deposited data

Results flagged for a closer look

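In 5 of the 56 members above the filter, 1 of the 4 KO oocytes stood apart from the other 3 by more than Dixon's 95% critical value, which chance does in about 1 in 20 groups. Hsf2bp was at 37.1 FPKM in KO4, with the other KO oocytes at 30.6 to 31.1. Cct4 was at 2.18 FPKM in KO3, with the others at 1.57 to 1.67. Dnajc1, an ER J protein, was at 2.02 FPKM in KO2, with the others at 1.15 to 1.20. Dnaja1 was at 48.8 FPKM in KO2, with the others at 37.1 to 38.2, so the 3 others alone also lie above every WT oocyte. Hspa2 was at 1.42 FPKM in KO1, with the others at 2.89 to 3.12; without KO1 its difference was -0.38.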

How the results depend on the processing

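Of the 19 members past 1.5-fold, 7 stayed past it in the same direction under every alternative that kept them above the filter (Dnajb4, Dnajc13, Hsf1, Hsf2, Hspa4, Dnajb14 and Hsph1), and none of the 19 had its sign turned. The 19 were picked by their difference in these same data. How many of all genes past 1.5-fold stay past it was not computed, so these counts are not a result about the members. Median-ratio scaling turned the median difference of the members to -0.021, that of the co-chaperone list to -0.041 and the difference of the summed member level, 38.0 FPKM as deposited, to -219 FPKM; leaving out 1 oocyte gave 0.211 FPKM without WT2, 12 without KO2, 19.2 without KO4, 66.6 without KO1 and 70.6 without WT1. Quantile normalization gave medians of 0.052 and 0.016, and a filter at FPKM 10 gave 0.035 for the co-chaperone list. Members over 1.5-fold higher numbered 8 of 56 with a pseudocount of 5, against 7.86% of all genes compared, and 6 of 29 with the filter at 10, against 18.1%. They numbered 7 of 56 with median-ratio scaling, against 14.8%, and 8 of 56 with quantile normalization, against 14.4%. Those lower numbered 1 of 56 with the pseudocount of 5, against 3.55%, and 2 of 29 with the filter at 10, against 9.71%. Members with every KO oocyte below every WT oocyte numbered 3 of 29 with the filter at 10. They numbered 12 of 56 with median-ratio scaling, against 14.9% of all genes, and 10 of 56 with quantile normalization. For the filter at 10 and for quantile normalization that share of all genes was not computed, so those counts are not a result about the members. On the co-chaperone list, 3 were higher with the pseudocount of 5, with the filter at 10 and with median-ratio scaling, and 5 with quantile normalization. Each is to be read against the share of all genes given above for that setting. Lower were 2 with a pseudocount of 0.1, against 11% of all genes, 6 with median-ratio scaling, against 14%, and 3 with quantile normalization, against 12.7%. The cause was not tested. Leaving out 1 oocyte at a time gave 9 to 16 members with every KO oocyte above every WT oocyte (16 without WT1 and 14 without KO3). Separation comes more easily to any gene with fewer oocytes. The matching share of all genes was not computed, so the rise is not a result about the members. Co-chaperone medians were 0.086 to 0.18 (0.18 without WT1, beside 0.24 for all genes). Co-chaperones higher numbered 5 to 9 (5 without KO2, against 20.1% of all genes). Those lower numbered 0 to 3, with 3 without WT2, against 7.77% of all genes. Without KO2 and without KO3 they numbered 2 each, against 9.13% and 8.35%. Leaving out members that share over 20% of their sequence, an alternative chosen after seeing the data, gave 13 higher and 5 lower of 48. No paired analysis was possible because no result comes from a test and nothing in the labels ties oocytes of the same number to each other. Differences below the filter are limited by depth, with 1 to 17 reads of Hspb1 per KO oocyte, for example. For Hspb1, shared sequence is a further limit.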
